A study of Homo sapiens with 12 samples.

Results

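The mRNAs of 9 genes that feed into mTORC1 were followed in pentamidine-treated and vehicle-treated cells: DDIT4, SESN1, SESN2, SESN3, DEPTOR, RRAGC, RRAGD, FLCN and AKT1S1. They were taken by gene name from a count table of 32077 genes, and all 9 were listed in it. Libraries were made from cells labelled PC3 and DU145, established human prostate cancer lines, exposed to pentamidine at 2.5 μmol/L or to sterile distilled water as vehicle for 48 hours. Each of the 4 groups (PC3 vehicle, PC3 pentamidine, DU145 vehicle and DU145 pentamidine) had 3 samples, 12 in all, and cells of every group were plated at 1000000 per well. Pentamidine is an aromatic diamidine used against protozoa and Pneumocystis. The genes were chosen by their counts in all 4 groups and the changes between them, already known, so their values are a description and no p-value is given for any of them.

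mTORC1 is a protein kinase complex on the lysosome surface that drives protein synthesis and restrains autophagy when amino acids, growth factors and energy are plentiful. DDIT4 (also called REDD1) and the sestrins are stress-induced brakes on it. DDIT4 acts through the TSC complex, and the sestrins act through GATOR2, with SESN2 binding leucine. The Rag GTPases carry amino acid signals to the complex, with RRAGC or RRAGD paired to RRAGA or RRAGB, and FLCN, folliculin, is the GTPase-activating protein for RRAGC and RRAGD. DEPTOR and AKT1S1 (PRAS40) are inhibitory proteins bound to the kinase complex itself. All of these act mainly as proteins, many of them through phosphorylation or nucleotide state, and only mRNA was measured here.

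Total counts ranged from 13514195 to 15131436 per sample. The labels were checked against marker genes. Of 4 epithelial markers, EPCAM had at most 2 counts in any library and CDH1 at most 10, while KRT8 averaged 20.5 CPM (counts scaled to a library total of 1000000) in PC3 vehicle and 2636 CPM in DU145 vehicle libraries and KRT18 averaged 157 and 890 CPM. Of the androgen-dependent markers, KLK3 and KLK2 had at most 3 counts in any library. The summed fibroblast markers stayed at or below 3.19 CPM and the summed leukocyte markers at or below 0.595 CPM in every library. PAX8, picked after its values were seen, averaged 152 CPM in PC3 vehicle and 225 CPM in DU145 vehicle libraries. Of the 4 epithelial markers, 2 keratins were thus present while EPCAM and CDH1 were nearly absent, which goes against the labels in part, so the libraries are called PC3-labelled and DU145-labelled below. These are bulk samples, so fewer cells of a type and less RNA per cell cannot be told apart.

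The stretches of 250 bases before the transcription start are shown for DDIT4 and SESN2, the members with the large changes described below. RefSeq on GRCh38.p14 held such an entry for 6 of the 9 genes (DDIT4, SESN1, SESN2, SESN3, RRAGC and FLCN). Both stretches are on the plus strand, DDIT4 at chr10:72273674-72273923 and SESN2 at chr1:28259268-28259517, and capitals mark a match to any motif searched.
DDIT4: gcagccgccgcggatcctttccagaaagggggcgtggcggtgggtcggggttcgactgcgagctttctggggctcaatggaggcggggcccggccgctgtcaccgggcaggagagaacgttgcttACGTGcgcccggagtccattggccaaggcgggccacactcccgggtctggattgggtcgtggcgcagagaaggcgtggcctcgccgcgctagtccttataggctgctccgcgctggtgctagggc
SESN2: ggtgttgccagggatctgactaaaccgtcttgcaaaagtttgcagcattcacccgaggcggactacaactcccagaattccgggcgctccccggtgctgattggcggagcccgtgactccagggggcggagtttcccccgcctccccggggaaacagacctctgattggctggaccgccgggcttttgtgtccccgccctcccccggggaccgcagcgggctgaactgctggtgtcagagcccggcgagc
The motifs were searched on both strands: the CARE core TGATGNAA bound by ATF4 with C/EBP partners, the cAMP response element TGACGTCA, the CLEAR core TCACGTGA of TFEB, the E-box CACGTG, the hypoxia response core ACGTG, and the FOXO core GTAAACA. The E-box lies inside the CLEAR core and holds the hypoxia core, so these matches overlap. The DDIT4 stretch held 1 hypoxia core, 125 to 121 bases before the start, and 18.5% of 35116 promoter stretches of this length held that core. RRAGC held an E-box, 112 to 107 bases before the start, as did 6.35% of all stretches. None of the 6 genes held the CARE core, the cAMP response element, the CLEAR core or the FOXO core in this window, and these were found in 3.14%, 1.65%, 0.854% and 2.98% of all stretches. The absence says only that these letters are not in the window.

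DDIT4 rose upon pentamidine treatment in both sets of libraries and had the largest change of the 9 genes in the PC3-labelled ones. The gene lies at chr10:72273920-72276036 on GRCh38 and its exons span 2058 bases. In PC3-labelled libraries its counts were 99, 108 and 117 with vehicle and 4317, 4235 and 4204 with pentamidine. In DU145-labelled libraries they were 424, 370 and 409 with vehicle and 1778, 1678 and 1621 with pentamidine. Every treated library stood above every vehicle library of its line, and the vehicle libraries of the lines did not overlap either. The mean level went from 7.52 ± 1.00 to 293 ± 8.22 CPM in PC3-labelled and from 27.8 ± 2.77 to 119 ± 7.70 CPM in DU145-labelled libraries (SD, n = 3). Fitted with edgeR's quasi-likelihood model, the log2 fold change was 5.30 ± 0.079 (standard error), or 39.5-fold, and 2.05 ± 0.058, or 4.14-fold. By fold change DDIT4 was number 7 from the top of 13861 tested genes in PC3-labelled libraries and number 19 of 14313 in DU145-labelled libraries. An antisense gene, DDIT4-AS1, shares 847 exon bases with it and has no values in the table, and whether counting used the strand was not given.

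SESN2 also rose in both, and it was the sestrin past the test. Its 10 exon blocks lie at chr1:28259527-28282491. Its counts were 242, 268 and 269 with vehicle and 4771, 4465 and 4643 with pentamidine in PC3-labelled libraries. They were 271, 270 and 251 with vehicle and 1346, 1372 and 1334 with pentamidine in DU145-labelled libraries. Vehicle levels of the lines overlapped, at 18.1 ± 1.70 and 18.3 ± 1.40 CPM, and the treated levels were far apart, at 318 ± 5.27 and 95.01 ± 1.63 CPM. The fitted log2 fold change was 4.16 ± 0.068 (17.9-fold) in PC3-labelled and 2.33 ± 0.061 (5.02-fold) in DU145-labelled libraries. SESN2 was thus above DDIT4 in fold change in DU145-labelled libraries and below it in PC3-labelled libraries.

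**Figure D1:**
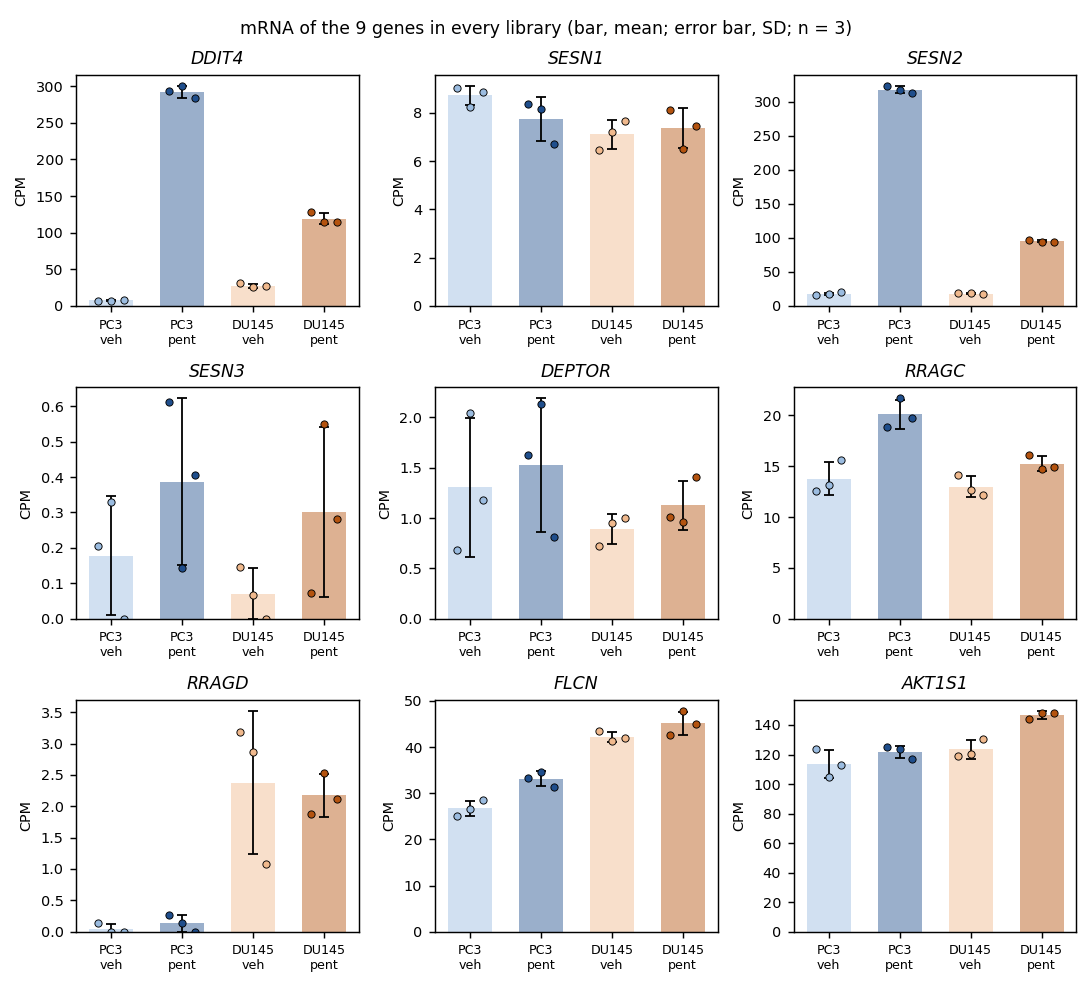
CPM (vertical axis, from 0, scaled per gene) of the 9 genes in the 12 libraries; points are libraries, bars the mean and error bars the SD of 3, with veh for vehicle and pent for pentamidine. Treated DDIT4 and SESN2 libraries stand above every vehicle library of their line, while SESN3, DEPTOR and PC3-labelled RRAGD lie near the limit of detection.

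SESN1, a sestrin known as a p53 and FOXO target, did not pass the test in either line. It had 132, 125 and 120 counts with vehicle and 123, 115 and 99 with pentamidine in PC3-labelled libraries, a log2 fold change of -0.15 ± 0.14. In DU145-labelled libraries it had 89, 106 and 114 counts with vehicle and 113, 95 and 106 with pentamidine, a log2 fold change of -0.0005 ± 0.14. The treated and vehicle groups overlapped in both lines. SESN3, the remaining sestrin, was too low for the test: it had 3, 5 and 0 counts with vehicle and 9, 2 and 6 with pentamidine in PC3-labelled libraries, and 2, 1 and 0 against 1, 8 and 4 in DU145-labelled libraries. Summed over libraries, the treated-to-vehicle ratio of SESN3 was 2.11 (95% interval of counting error 0.862 to 5.65) and 4.41 (1.21 to 24.1), and the groups overlapped in both lines.

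Set on a scale of CPM per kilobase of exon, SESN2 made up 75.2% ± 2.05 of the summed sestrin level with vehicle and 98.4% ± 0.167 with pentamidine in PC3-labelled libraries. In DU145-labelled libraries its share was 79.1% ± 2.58 with vehicle and 94.9% ± 0.385 with pentamidine. These shares turn on the length used. With the median transcript length, the shares with vehicle were 35.1% ± 2.53 and 40.5% ± 3.69 and with pentamidine 91.3% ± 0.811 and 76.9% ± 1.22. The median transcript of SESN1 has 920 bases of an exon union of 5121.

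The Rag GTPase gene RRAGC and its regulator FLCN stayed within the fold threshold upon treatment. RRAGC had 183, 199 and 211 counts with vehicle and 278, 305 and 292 with pentamidine in PC3-labelled libraries, with no overlap. Its log2 fold change there was 0.57 ± 0.11, past the adjusted p alone and short of the fold threshold of 1. In DU145-labelled libraries RRAGC had 195, 186 and 181 counts with vehicle and 224, 215 and 211 with pentamidine, also with no overlap, and its log2 fold change of 0.18 ± 0.10 did not pass. A transcript named AL139260.2 shares 1183 exon bases with RRAGC. FLCN had 367, 402 and 385 counts with vehicle and 489, 488 and 465 with pentamidine in PC3-labelled libraries, a log2 fold change of 0.33 ± 0.080 that passed the adjusted p alone. In DU145-labelled libraries its counts of 599, 605 and 626 with vehicle and 593, 696 and 637 with pentamidine overlapped, with a log2 fold change of 0.047 ± 0.061.

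RRAGD, the close relative of RRAGC, divided the libraries by line. It had 2, 0 and 0 counts with vehicle and 4, 2 and 0 with pentamidine in PC3-labelled libraries, too few for the test, with a treated-to-vehicle ratio of 2.98 and a 95% counting interval of 0.532 to 30.2. In DU145-labelled libraries it had 44, 42 and 16 counts with vehicle and 26, 37 and 30 with pentamidine, and the groups overlapped. The log2 fold change in DU145-labelled libraries was -0.16 ± 0.28. That sign rests on single libraries, since it was -0.52 without vehicle replicate 3, 0.094 without vehicle replicate 1 and 0.0003 without vehicle replicate 2.

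The genes of the inhibitory subunits, AKT1S1 and DEPTOR, did not reach the fold threshold. AKT1S1 had 1808, 1584 and 1525 counts with vehicle and 1838, 1740 and 1734 with pentamidine in PC3-labelled libraries, and the groups overlapped in CPM. In DU145-labelled libraries it had 1645, 1765 and 1950 counts with vehicle and 1999, 2161 and 2103 with pentamidine, with no overlap. Its log2 fold change was 0.12 ± 0.062 and 0.20 ± 0.040, and only the latter passed the adjusted p, though without PC3 vehicle replicate 1 the former (0.18) passed as well. AKT1S1 shares 392 exon bases with TBC1D17 on the opposite strand. DEPTOR had 10, 31 and 16 counts with vehicle and 24, 30 and 12 with pentamidine in PC3-labelled libraries, and 10, 14 and 15 against 14, 14 and 20 in DU145-labelled libraries. The log2 fold changes of DEPTOR were 0.23 ± 0.40 and 0.27 ± 0.37. Its value in PC3-labelled libraries became -0.091 without vehicle replicate 1, -0.093 without pentamidine replicate 2 and 0.72 without vehicle replicate 2, so no direction can be read.

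**Figure D2:**
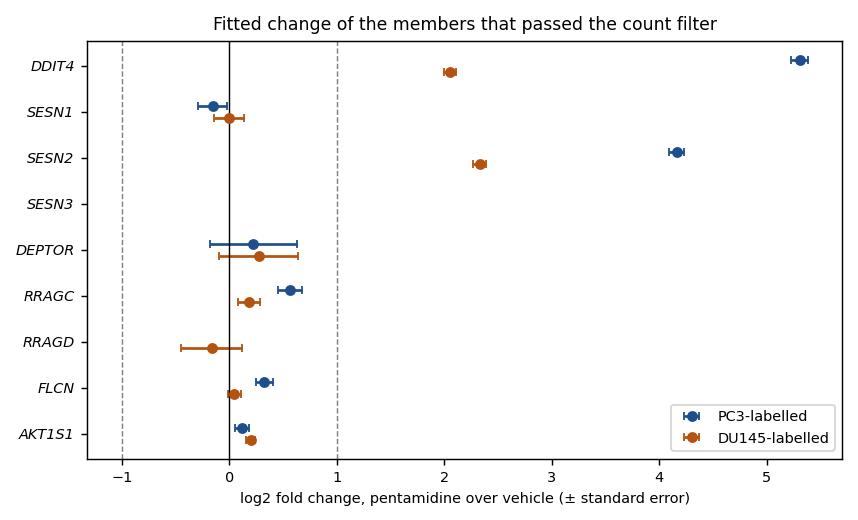
Fitted log2 fold change of pentamidine over vehicle (horizontal axis) with its standard error for each member that passed the count filter, by line; dashed lines mark the fold threshold. DDIT4 and SESN2 lie beyond the threshold in both lines and the other members within it, with no point for SESN3 and, in PC3-labelled libraries, RRAGD.

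Genes were called changed where the log2 fold change was above 1 in size and the adjusted p below 0.05. In PC3-labelled libraries 7 of the 9 genes passed the filter on low counts and 2 were called, DDIT4 and SESN2, beside 4.75% of all tested genes, and both were higher, beside 3.44%. On the adjusted p alone 4 passed, beside 43.4% of all genes, and 4 did not overlap between the groups, all higher with pentamidine, beside 24.9%. In DU145-labelled libraries 8 passed the filter and 2 were called, again DDIT4 and SESN2, beside 2.03% of all genes, and both were higher, beside 1.37%. There 3 passed the adjusted p alone, beside 34.0%, and 4 did not overlap, all higher, beside 28.7%. Since the choice of genes used these comparisons, nothing is read from these counts.

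The changes were next set side by side between the lines by an interaction term in a fit of all 12 samples. This comparison uses the same vehicle and treated libraries as the single-line comparisons, so it is not independent of them. The difference in log2 fold change, PC3-labelled minus DU145-labelled, was 3.25 ± 0.11 for DDIT4 and 1.83 ± 0.092 for SESN2, a change 9.53 and 3.56 times as large. Of the 8 members tested, these 2 were called, beside 2.62% of all 15226 genes, both with the larger change in PC3-labelled libraries, beside 1.71%. On the adjusted p alone FLCN passed as well, at 0.28 ± 0.098, which made 3 members, beside 20.4% of all genes. FLCN kept this in 6 of 19 alternatives, with values of 0.21 to 0.34 over all of them. It lost it with the replicate number as a block (0.28), with library size alone (0.21), with no filter on low counts (0.29) and with limma on log2(CPM + 1) (0.21). It also lost it without either of PC3 vehicle replicates 1 and 2, PC3 pentamidine replicates 1 and 2, any DU145 vehicle replicate, or DU145 pentamidine replicates 1 and 3. RRAGC differed by 0.38 ± 0.15, AKT1S1 by -0.082 ± 0.077, SESN1 by -0.15 ± 0.19 and DEPTOR by -0.047 ± 0.55, none past the adjusted p, although RRAGC passed without PC3 vehicle replicate 3 (0.49). RRAGD gave 1.60 ± 1.30, which went to 4.25 without PC3 vehicle replicate 1 and to 0.69 without PC3 pentamidine replicate 1.

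With vehicle the lines differed in DDIT4, which was lower in PC3-labelled than in DU145-labelled libraries by a log2 value of -1.97 ± 0.12. SESN2 was level, at -0.099 ± 0.10. The wider DDIT4 change in PC3-labelled libraries thus ran from a lower vehicle level to a higher treated level, while that of SESN2 ran from overlapping vehicle levels. RRAGD summed to 2 counts over the PC3-labelled and 102 over the DU145-labelled vehicle libraries, a ratio of 50.9 with a 95% counting interval of 13.7 to 426. FLCN was lower in PC3-labelled libraries, at -0.74 ± 0.074, and AKT1S1 at -0.20 ± 0.062, both past the adjusted p alone. AKT1S1 did not pass without PC3 vehicle replicate 2 or DU145 vehicle replicate 3, or when scaled by library size alone (-0.12). Of the 8 members tested, 2 were called, DDIT4 and RRAGD, beside 19.2% of all genes, and 4 passed the adjusted p alone, beside 65.3%. SESN1 was 0.21 ± 0.13, RRAGC 0.0031 ± 0.12 and DEPTOR 0.46 ± 0.39, and the DEPTOR value was -0.019 without PC3 vehicle replicate 2.

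**Figure D3:**
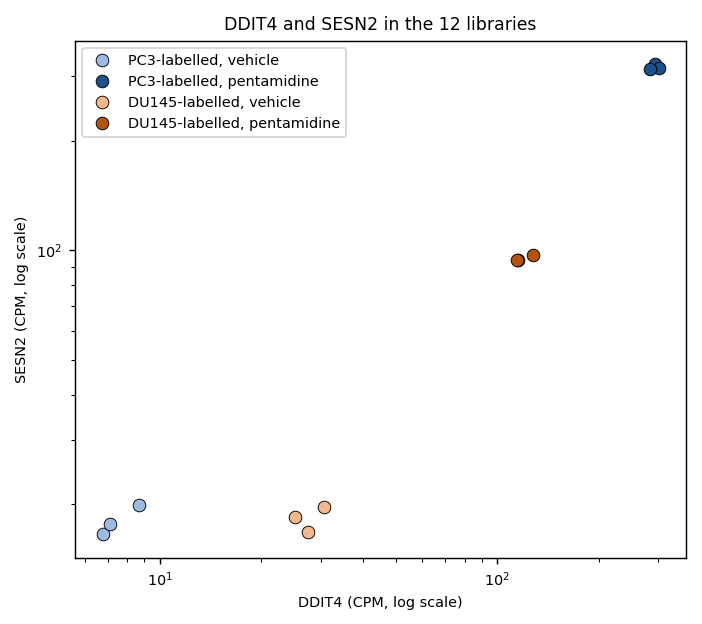
DDIT4 against SESN2 in each of the 12 libraries, both in CPM on log axes, coloured by group. The 4 groups lie apart on the DDIT4 axis, while the vehicle libraries of both lines lie together on the SESN2 axis, at 16.6 to 19.9 CPM.

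Levels of different genes were compared per kilobase of the union of their exons, in CPM per kilobase. With vehicle AKT1S1 stood highest in both lines, at 19.8 ± 1.67 in PC3-labelled and 21.5 ± 1.12 in DU145-labelled libraries. Below it in PC3-labelled vehicle libraries came SESN2 at 5.23 ± 0.492, DDIT4 at 3.66 ± 0.485, FLCN at 2.73 ± 0.173, RRAGC at 2.66 ± 0.316, SESN1 at 1.70 ± 0.0799 and DEPTOR at 0.498 ± 0.263, with SESN3 and RRAGD at or below 0.0312 in every library. On this length FLCN and RRAGC did not differ beyond their spread there, nor did SESN3 and RRAGD, whereas with the median transcript length FLCN stood at 21.6 ± 1.36 and RRAGC at 8.50 ± 1.01. In DU145-labelled vehicle libraries DDIT4 was the second at 13.5 ± 1.35, SESN2 the third at 5.30 ± 0.407 and FLCN the fourth at 4.31 ± 0.113, followed by RRAGC at 2.51 ± 0.199 and SESN1 at 1.39 ± 0.119. RRAGD at 0.468 ± 0.225 and DEPTOR at 0.341 ± 0.0571 overlapped.

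With pentamidine DDIT4 became the highest of the 9, at 142 ± 3.995 CPM per kilobase in PC3-labelled and 57.9 ± 3.74 in DU145-labelled libraries. SESN2 followed at 92.2 ± 1.53 and 27.5 ± 0.473, and AKT1S1 came next at 21.2 ± 0.711 and 25.6 ± 0.436. In PC3-labelled libraries RRAGC, at 3.89 ± 0.274, stood above FLCN, at 3.38 ± 0.164, which in DU145-labelled libraries was higher at 4.61 ± 0.259 against 2.95 ± 0.147. The order in PC3-labelled libraries turned with the median transcript length, to 12.4 ± 0.874 for RRAGC and 26.7 ± 1.30 for FLCN. With the median transcript length in place of the exon union, DDIT4 was still the highest after pentamidine in both lines, but SESN2 fell from place 2 to place 4 in DU145-labelled treated libraries and to place 6 in vehicle libraries of both lines.

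The genes whose log2 CPM ran most like that of DDIT4 over the 12 samples, of 15226 genes, were FAM129A, a stress-induced regulator of translation (r = 0.994), WARS, tryptophanyl-tRNA synthetase (0.994), SLC6A9, a glycine transporter (0.993), ROBO3, an axon guidance receptor (0.992) and MT-RNR2, the mitochondrial large-subunit rRNA (0.987). SLC6A9 went from 4.74 ± 0.0496 to 66.8 ± 4.38 CPM in PC3-labelled and from 11.5 ± 1.62 to 44.4 ± 1.61 CPM in DU145-labelled libraries, so it too was lower with vehicle in the PC3-labelled ones. MT-RNR2 rose from 3588 to 19360 CPM in PC3-labelled and from 5221 to 13891 CPM in DU145-labelled libraries. By qPCR the study found MT-RNR2 reduced, and its authors presumed sequencing errors behind the rise. The RNA was poly(A)-selected, and the disagreement was not tested. Most like SESN2 were TXNRD1, thioredoxin reductase (0.998), KDM4A, a histone demethylase (0.998), and RBCK1, a subunit of the linear ubiquitin ligase (0.997). DDIT4 and SESN2 had an r of 0.939 with each other, which placed SESN2 at number 89 among the genes like DDIT4. The samples fall into 4 groups, so these correlations are descriptions of the group pattern.

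Of the other members, RRAGD ran most like SEMA3F, ALS2CL and AC007040.2 (0.981, 0.980 and 0.978), all low in PC3-labelled libraries, and FLCN most like SDHAP3, KCTD15 and NTN4 (0.988, 0.987 and 0.985). RRAGC ran most like SRP72P2, MED8 and PQBP1 (0.980, 0.963 and 0.960), and AKT1S1 most like ZNF580, MNX1-AS1 and TJP3 (0.963, 0.948 and 0.947). For SESN1 the genes were PQLC1, UNC5CL and AP001001.1 (0.839, 0.838 and 0.830) and for DEPTOR RPL23P2, TMEM199 and KLHL7 (0.894, 0.812 and 0.805). Low counts of DEPTOR, UNC5CL, AP001001.1 and RPL23P2 leave much of their values to counting error. SRP72P2, at means of 0.0242 to 1.125 CPM by group, and TJP3, at 0.137 to 1.01 CPM, were low as well. PQLC1 was not, at 50.5 to 66.9 CPM.

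The rest of the mTORC1 pathway was read from 8 lists with 79 genes, of which 78 were in the table. In PC3-labelled libraries 24 of the 74 tested were higher and 16 lower by the adjusted p, beside 21.7% of all genes in each direction. Called past the fold threshold were 4 higher and 1 lower, beside 3.44% and 1.31%, and the median log2 fold change was 0.079, beside 0.0046 over all genes. In DU145-labelled libraries 15 of 75 were higher and 13 lower, beside 17.2% and 16.8% of all genes, and none was past the fold threshold with an adjusted or an unadjusted p below 0.05 by edgeR, nor with an adjusted p by DESeq2 or limma (0 of 75). The median was 0.020 beside 0.0085, and scaling by library size alone moved the latter to 0.058. Counts by list in DU145-labelled libraries turned on the test, as given below for some lists. The lists did not hold the 9 members.

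Among substrates and outputs of mTORC1, 6 genes were higher and 4 lower of 11 tested in PC3-labelled libraries, beside 21.7% of all genes each way. In DU145-labelled libraries 6 were higher and 3 lower of 11, beside 17.2% and 16.8%. EIF4EBP1, the translation repressor that mTORC1 inactivates, went from 101 ± 3.48 to 223 ± 5.61 CPM (log2 fold change 1.16 ± 0.052, adjusted p = 1.1e-11 by edgeR) and from 122 ± 3.88 to 215 ± 3.40 CPM (0.76 ± 0.038, 1.1e-23). PDCD4, an inhibitor of the helicase eIF4A that is degraded upon S6 kinase signalling, had 1.26 ± 0.080 (1.2e-09) and 0.85 ± 0.072 (2e-14). ULK1, the kinase that starts autophagy, had 0.63 ± 0.057 and 0.16 ± 0.049, the latter not past the test without DU145 vehicle replicate 3 (0.14) or DU145 pentamidine replicate 3 (0.13). EIF4E, the cap-binding protein held by EIF4EBP1, fell by 0.51 and 0.29 on the log2 scale. EIF4EBP2, a gene related to EIF4EBP1, was -0.51 and -0.092, the latter not past the adjusted p. RPS6KB1, an S6 kinase gene, was -0.34 and -0.14, both past it.

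Upstream of mTORC1, GRB10, an adaptor that restrains insulin signalling, was called higher in PC3-labelled libraries, from 0.524 ± 0.217 to 2.00 ± 0.422 CPM, a log2 fold change of 1.92 ± 0.36 (adjusted p = 0.00041 by edgeR). INSR, the insulin receptor, was called there too, from 1.43 ± 0.38 to 3.84 ± 0.583 CPM, at 1.44 ± 0.25 (0.00018). Neither call held with limma on log2(CPM + 1), which gave 0.98 for GRB10 and 0.9996 for INSR, and GRB10 was not tested with at least 10 counts in every sample. In DU145-labelled libraries GRB10 was 0.36 ± 0.28 and INSR 0.21 ± 0.13, neither past the test. Of the insulin, PI3K and AKT list as a whole, 6 were higher and 3 lower of 13 in PC3-labelled libraries, beside 21.7% of all genes each way. In DU145-labelled libraries 1 was higher and 1 lower of 13, beside 17.2% and 16.8%. There limma gave 3 higher and 0 lower, and DESeq2 0 and 1.

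The sestrins act on GATOR2 and DDIT4 on the TSC complex. Of 15 genes of GATOR, KICSTOR and amino acid sensors, 3 were higher and 3 lower in PC3-labelled libraries, and 2 and 2 in DU145-labelled libraries. Over all genes 21.7% went each way in PC3-labelled libraries, and 17.2% were higher and 16.8% lower in DU145-labelled libraries. CASTOR2 was the only gene of the 8 lists called lower in PC3-labelled libraries, at -1.26 ± 0.30 from 2.02 ± 0.239 to 0.827 ± 0.133 CPM. With limma on log2(CPM + 1) it was -0.72, short of the fold threshold. CASTOR2 has near-identical gene copies, so its reads may be split. Of 5 tested genes of the TSC complex and RHEB, 2 were higher in PC3-labelled and 1 in DU145-labelled libraries. TSC2, on which DDIT4 signals converge, was 0.20 ± 0.063 and 0.25 ± 0.042, and its value in PC3-labelled libraries did not pass without PC3 vehicle replicate 2 (0.14) or PC3 pentamidine replicate 1 (0.16). Of 10 Rag and Ragulator genes, 1 was higher and 1 lower in each line.

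Among AMPK genes 4 were higher and 2 lower of 10 in PC3-labelled libraries, beside 21.7% of all genes each way. In DU145-labelled libraries 3 were higher and 2 lower of 10, beside 17.2% and 16.8%. PRKAB2 was 0.52 ± 0.067 and 0.24 ± 0.058. Of the 6 genes of the complex core and its assembly, 1 was higher and 2 lower in PC3-labelled libraries, and 1 and 3 in DU145-labelled libraries. MLST8, the subunit shared by both mTOR complexes, was 0.32 ± 0.062 and 0.39 ± 0.046, and TTI1, an assembly factor, fell by 0.50 and 0.21. Of the mTORC2 and SGK1 genes, 1 of 4 was higher and 1 lower in PC3-labelled libraries and 1 of 5 lower in DU145-labelled libraries. The lower gene was PRR5L, an mTORC2-associated protein, at -0.75 ± 0.11 and -0.67 ± 0.23, and in DU145-labelled libraries it did not pass without vehicle replicate 1 (-0.64), pentamidine replicate 2 (-0.54) or pentamidine replicate 3 (-0.40).

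**Figure D4:**
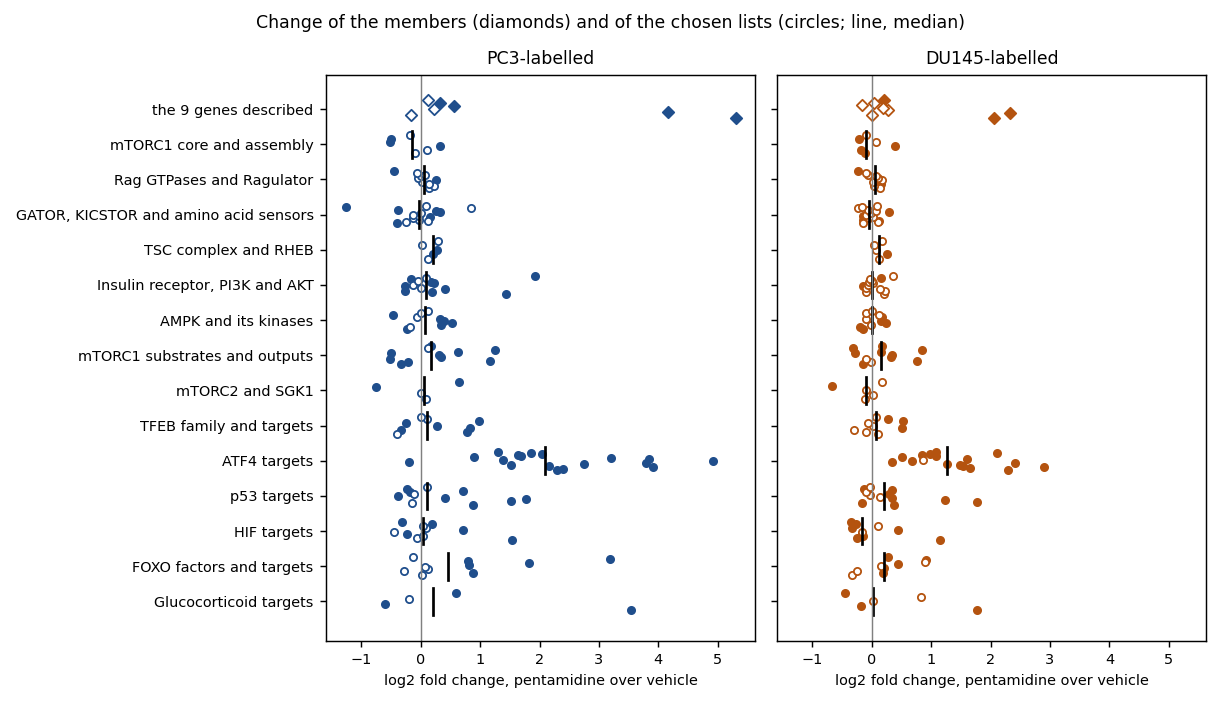
Log2 fold change of pentamidine over vehicle (horizontal axis) of each tested gene of the lists (circles) and of the members (diamonds), in PC3-labelled libraries on the left and DU145-labelled libraries on the right; filled symbols passed an adjusted p of 0.05 and lines are list medians. The ATF4 list lies to the right, with medians of 2.1 and 1.27, and the mTORC1 lists lie around 0.

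Other targets of the factors known to induce the members were read, in lists drawn up with earlier results of these data known. A gene can be a target of several factors, as SESN1 is of p53 and FOXO. The activity of the factors was not tested. Of 18 ATF4 targets tested in PC3-labelled libraries 17 were higher and 1 lower, beside 21.7% of all genes in each direction. Called higher were 16, beside 3.44%, and the median log2 fold change was 2.1. Of 17 tested in DU145-labelled libraries 16 were higher, beside 17.2% of all genes, and 11 called higher, beside 1.37%, with a median of 1.27. CHAC1, which breaks down glutathione, went from 8.97 ± 0.934 to 134 ± 3.80 CPM and from 9.11 ± 1.17 to 69.9 ± 2.12 CPM. ASNS, asparagine synthetase, changed by 2.29 ± 0.17 and 2.29 ± 0.19, with levels of 1.78 to 9.87 CPM.

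Of the p53 targets 5 were higher and 3 lower of 11 in PC3-labelled libraries, beside 21.7% of all genes in each direction. In DU145-labelled libraries 6 were higher and 2 lower of 12, beside 17.2% and 16.8% of all genes. There limma gave 6 higher and 0 lower, and DESeq2 5 and 2. The called ones, GDF15 (1.77 ± 0.050 and 1.23 ± 0.038) and BBC3 (1.52 ± 0.16 and 1.77 ± 0.20), encode a stress hormone and a pro-apoptotic protein. Of 10 HIF targets, beside the same shares, 3 were higher and 2 lower in PC3-labelled libraries, and 2 and 6 in DU145-labelled libraries. In the latter DESeq2 gave 2 higher and 4 lower, and limma 3 and 4. VEGFA, the angiogenic growth factor, was 1.53 ± 0.054 and 1.14 ± 0.055, whereas LDHA, lactate dehydrogenase, fell by 0.32 and 0.34.

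Of the FOXO factors and targets 5 of 10 were higher in PC3-labelled and 5 of 9 in DU145-labelled libraries. Over all genes 21.7% went each way in PC3-labelled libraries, and 17.2% were higher and 16.8% lower in DU145-labelled libraries. No FOXO list gene was lower by edgeR with an adjusted or an unadjusted p (0 of 10 and 0 of 9), nor by DESeq2 or limma with an adjusted p, and DESeq2 gave 2 higher in DU145-labelled libraries. The list's median was 0.46 and 0.20, and 2 genes were called, both in PC3-labelled libraries. TXNIP, which binds thioredoxin and restrains glucose uptake, went from 0.910 ± 0.238 to 8.18 ± 0.703 CPM there (3.19 ± 0.22, adjusted p = 3.6e-09 by edgeR) and was too low for the test in DU145-labelled libraries. BCL6, a transcriptional repressor, was 1.82 ± 0.34 and 0.90 ± 0.38, the latter not past the test, and limma on log2(CPM + 1) gave 0.95 for the former, short of the fold threshold. CCNG2, a cyclin G, was 0.80 ± 0.12 and 0.92 ± 0.11. Of the TFEB family and targets 4 were higher and 2 lower of 9, and 3 higher of 9, with SQSTM1, an autophagy receptor, at 0.83 ± 0.051 and 0.51 ± 0.039. Among glucocorticoid targets 2 were higher and 1 lower of 4, and 1 and 2 of 5. TSC22D3 went from 7.53 ± 0.608 to 86.7 ± 8.50 CPM and from 4.08 ± 0.811 to 14.4 ± 1.88 CPM, whereas FKBP5 fell by 0.59 and 0.18 on the log2 scale, the latter not past the test without DU145 pentamidine replicate 1 (-0.097).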

How the data were processed

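Poly(A)-selected RNA of 12 samples was sequenced. Whole-number counts of reads per gene were deposited by the authors without normalization. The submitters' processing notes name HISAT2 2.1.0, DESeq 1.18.1 and GRCh38. The counting program, annotation and strand setting are not given in the sources used here. The deposited table named for FPKM holds CPM: 100% of 384636 values equalled the count scaled to a library total of 1000000 within a relative 1e-05. Tables of the authors' own fold changes and p-values were not used.

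Of 33595 entries, duplicates were merged to 32077 genes. Spreadsheet conversion had turned 24 names into dates. Groups came from the labels. Replicates differed beyond sampling noise in every pair. Nothing says that they came from separate cultures, so p-values measure the spread between these samples, which may be technical. edgeR 4.0.16 (R 4.3.3) fitted quasi-likelihood models with TMM, filterByExpr (minimum count 10) and Benjamini-Hochberg adjustment. Each line was fitted with its 6 samples, and the interaction with all 12. Thresholds were a log2 fold change of 1 and an adjusted p of 0.05, as in the study. The standard error is the log2 fold change over the root of the F statistic. Levels per length divide CPM by the exon union in GENCODE 29, where all 9 genes had the same position. Likeness is Pearson's r of log2 CPM (prior count 2).

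The members, lists, tests and naming rule were chosen with earlier results of these data known. Named were all 9 members, up to 4 genes per list with the largest mean change past the adjusted p with the same sign in both lines, up to 4 called in either line, and the 5 genes most like DDIT4 and 3 most like each other member. Some of these are given by count only. EIF4EBP2 and RPS6KB1 were named outside this rule. The alternatives were DESeq2 1.42.0, RLE factors, library size alone, no filter, at least 10 counts in every sample, limma 3.58.1 on log2(CPM + 1), a single model of the 12 samples, the replicate number as a block, each sample left out, and the median transcript length. The scripts were tested on simulated data. Counting intervals (95%, exact) and the detection limit of 3 counts cover counting error only, since reads carry no molecular identifiers. TMPRSS2, CD3E and PRKAG3 were not analysed here, and a few other genes are not reported here.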

Additional observations from a re-analysis of the deposited data

Results flagged for a closer look

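The response to pentamidine differed between the lines for several of the genes described. For the members, whose choice used these values, the difference in log2 fold change (PC3-labelled minus DU145-labelled) was 3.25 for DDIT4 and 1.83 for SESN2. Both passed the thresholds of the interaction term, but because of that choice the values are a description and no p-value is given. Every treated library was above every vehicle library in both lines for these genes, so the difference is one of size.

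Among the list genes, edgeR's interaction term passed both thresholds for the following, all with the larger rise in PC3-labelled libraries. GRB10 differed by 1.55 ± 0.45 (adjusted p = 0.014) and INSR by 1.22 ± 0.30 (0.0036), and in DU145-labelled libraries neither passed the test on its own. CHAC1 differed by 1.02 ± 0.12 (3.5e-07), ATF3 by 1.39 ± 0.34 (0.0039), STC2 by 1.60 ± 0.080 (1.5e-14) and VLDLR by 2.98 ± 0.62 (0.00084) among the ATF4 targets. TSC22D3, a glucocorticoid target, differed by 1.78 ± 0.19 (9e-08). With limma on log2(CPM + 1) the difference fell short of the fold threshold for GRB10 (0.72), INSR (0.74) and CHAC1 (0.94). CHAC1 was also short of it when scaled by library size alone (0.95) and without PC3 vehicle replicate 1 (0.98), PC3 vehicle replicate 3 (0.99) or DU145 vehicle replicate 1 (0.93), and ATF3 did not pass the adjusted p without DU145 vehicle replicate 2 (1.15). GRB10, ATF3 and VLDLR were not tested with at least 10 counts in every sample. GRB10, INSR, ATF3 and VLDLR averaged under 3 CPM in PC3-labelled vehicle libraries. The lines also differ in their vehicle levels and go against their labels for EPCAM and CDH1, though not for KRT8 and KRT18 in DU145-labelled libraries, and the part of this in the differences was not tested.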

How the results depend on the processing

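DDIT4 and SESN2 were called in both lines and in the interaction under every alternative run, and of 472 values of the members under alternatives none changed the sign of a called value, 460 moved by less than the spread between replicates and 12 moved further. With limma on log2(CPM + 1), which understates low genes, DDIT4 was 5.11 in PC3-labelled libraries, 3.05 in the difference and -1.76 between vehicle groups, and RRAGD was -1.63 between vehicle groups. With the median transcript length, treated DDIT4 levels were 389 and 158 CPM per kilobase in place of 142 and 57.9. RRAGD between vehicle groups was -8.12 without PC3 vehicle replicate 1. The number of genes called fell with at least 10 counts in every sample to 431 in PC3-labelled libraries, 154 in DU145-labelled libraries, 251 in the difference and 1432 between vehicle groups, where fewer genes were tested and 1 member was called, RRAGD having dropped out. With limma it was 332, 109 and 232 for the first 3 of these, and with DESeq2 193 in DU145-labelled libraries; the cause was not tested. Leaving out each sample in turn gave 654 to 741, 293 to 319, 357 to 412 and 2876 to 2990 calls. CASTOR2 in DU145-labelled libraries, -0.17, ranged from -0.51 without DU145 vehicle replicate 3 to 0.16 without DU145 vehicle replicate 2 and 0.11 without DU145 pentamidine replicate 1. Of 1083 values of named list genes under alternatives, 1021 kept their direction and side of the threshold, 56 lost the adjusted p, 4 gained it and 2 reversed.

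The replicate numbers did not pair the samples: same-numbered samples had correlations of their deviations of -0.073 to 0.039. With the replicate number as a block, 648 genes were called in PC3-labelled libraries (641 shared with the fit without it), 285 (280) in DU145-labelled libraries, 362 (354) in the difference and 2773 (2758) between vehicle groups, and the number of members called did not change. At these depths SESN3 and PC3-labelled RRAGD had counting intervals that span several-fold changes.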
